A study of Mus musculus with 2 samples.

Results

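Serine synthesis and folate one-carbon enzymes were followed in ribosome footprints of the ileum of mice, the final stretch of small bowel. The set was fixed by name as 10 genes, Phgdh, Psat1, Psph, Shmt1, Shmt2, Mthfd1, Mthfd2, Mthfd1l, Aldh1l2 and Asns, and all 10 were found among the 22756 gene rows of each file. These genes, and the lists set beside them, were chosen with earlier results of these data known. The tissue came from wild type C57BL/6 mice at postnatal day 21, either fed or fasted for 48 h, with 1 library of ribosome-protected mRNA fragments from each state. How many animals stand behind a library is not stated, and every difference below lies between 2 libraries and has no replicate check. A footprint count rises with the amount of an mRNA and with how heavily it is translated, and these cannot be told apart here. In whole ileum, fewer cells of a type and less RNA per cell cannot be told apart either.

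Cells make serine from the glycolytic intermediate 3-phosphoglycerate in a short pathway. Serine hydroxymethyltransferases then move a carbon from serine to tetrahydrofolate, the reduced form of the vitamin folate, and the loaded folates feed purine, thymidylate and methionine synthesis. The folate steps run in parallel in mitochondria and cytosol, with formate and serine passing between them. Several of these genes, with the asparagine synthetase gene Asns, are known targets of ATF4, the transcription factor of the amino acid response. Dividing cells, such as those of the intestinal crypt, are known to depend on this carbon supply.

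The promoters are shown because Asns is the best-known member for a C/EBP-ATF response element, and because Asns and Mthfd2 lay at opposite ends among the members with enough counts. Both were thus picked by their ratios in these data, and a link between motif and ratio was not tested. An exact search of short windows cannot show that a gene lacks a response element. RefSeq promoter windows (GRCm38.p6, 250 bases before and 50 after each start) were found for 9 of the 10 genes, 10 windows in all. The motif TGATGNAA was searched on both strands. Asns held the match, beginning 23 bases before the RefSeq start on the gene's own strand (-23), and none of the windows of the other 8 held these letters. Of all 32851 windows of 300 bases, 3.97% held a match. The 250 bases before the start are printed 5′ to 3′ on the gene's strand, with the motif in capitals, for Asns (chr6:7693210-7693459, minus strand) and Mthfd2 (chr6:83317605-83317854, minus strand, with no match).
Asns: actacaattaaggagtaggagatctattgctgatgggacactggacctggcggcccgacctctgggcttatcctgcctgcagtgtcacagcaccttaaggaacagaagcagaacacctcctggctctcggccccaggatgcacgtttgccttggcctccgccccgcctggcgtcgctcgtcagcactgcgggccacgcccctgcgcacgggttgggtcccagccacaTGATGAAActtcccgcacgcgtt
Mthfd2: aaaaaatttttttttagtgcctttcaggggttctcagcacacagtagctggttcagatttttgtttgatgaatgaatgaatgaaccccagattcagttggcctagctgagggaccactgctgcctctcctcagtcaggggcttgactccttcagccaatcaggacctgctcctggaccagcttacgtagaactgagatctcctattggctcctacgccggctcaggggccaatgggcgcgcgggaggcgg
The Mthfd2 start that RefSeq gives lies inside the longer gene span of GENCODE vM21, which reaches base 83325908. The same holds for Asns, whose span reaches base 7693254 and takes in the motif, and for Psat1, whose span reaches 15947337. RefSeq starts of Phgdh, Psph and Shmt1 lie inside their GENCODE spans too. A match or its absence therefore holds for the RefSeq starts only.

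The libraries held 5558620 (fed) and 5434252 (fasted) counts assigned to genes. Genes reaching 30 counts over both libraries are called measured. They are called higher or lower in the fasted library if they differed by 1.5-fold or more and their 95% exact interval, which covers counting error only, excluded 1. Ratios use TMM scaling, which sets the typical gene near a ratio of 1. Dividing by total gene counts instead (plain CPM, a count scaled to a fixed library total) moves every log2 ratio by -0.32, the median of all genes included. All 12 enterocyte and all 8 ileal markers were measured, among them Fabp6, the ileal bile acid binding protein (28873 fed and 16615 fasted counts). All listed smooth muscle, fibroblast and endothelial markers were measured too, so reaching 30 counts does not by itself identify the tissue.

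The log2 ratio was below 0 for 8 of the 10 enzymes with TMM scaling, and for 9, all but Aldh1l2, with plain CPM. The median over all measured genes was 0.0028 and -0.32 under these scalings, so a ratio below 0 is common among all genes. Of the 8 measured members 4 were lower (Psat1, Shmt2, Mthfd1 and Mthfd2), 0 were higher and 4 were neither (Psph, Shmt1, Mthfd1l and Asns). Phgdh and Aldh1l2 did not reach 30 counts. Over all 11333 measured genes, 17.3% were called lower and 17.3% higher. The median log2 ratio of the 8 was -0.54, against 0.0028 over all measured genes. With plain CPM 6 were lower, Shmt1 and Mthfd1l being added, and 0 higher, where 31.2% of all measured genes were lower and 8.86% higher. Summed over the 10 genes there were 2003 fed and 1091 fasted counts, 360.3 and 200.8 CPM. Mthfd1, Shmt1, Shmt2 and Asns carried most of these.

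**Figure D1:**
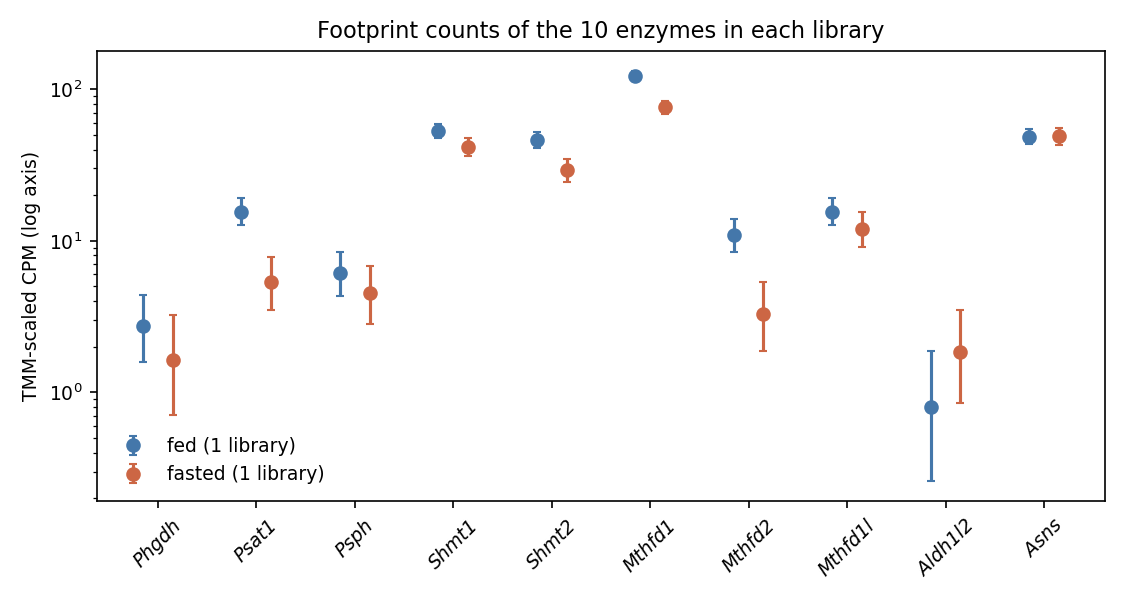
TMM-scaled CPM (log axis) of the 10 enzymes in the fed (blue) and fasted (orange) library, 1 library each, with 95% exact Poisson intervals that cover counting error only. Psat1 and Mthfd2 show the widest gaps among genes with at least 30 counts, from 15.6 to 5.35 and from 10.9 to 3.29, while the Asns points lie level at 48.6 and 49.0.

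The serine pathway begins with Phgdh, phosphoglycerate dehydrogenase, which oxidises 3-phosphoglycerate. Phgdh (ENSMUSG00000053398, chromosome 3, 98313170 to 98339990, minus strand; all gene coordinates are 1-based from GENCODE vM21 on GRCm38, the assembly of mm10) had 17 fed and 8 fasted counts. Its log2 ratio of -0.73 had an interval from -2.15 to 0.56, too wide at this depth to show a difference. Little of the gene is unique in sequence. Only 11.3% of the 28-base windows of its coding sequence occurred in no transcript of another gene, whereas each of the other 9 members had at least 89.5%. Of the 27 genes sharing a window with Phgdh, 23 are annotated as processed pseudogenes. The files list reads aligned to several places apart from the genes, at 41.4% (fed) and 39.9% (fasted) of all counted reads.

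2 coding stretches of Phgdh from GENCODE vM21 transcripts show this contrast, the first shared with 14 other genes (coding bases 60 to 87) and the second with none (bases 293 to 320), both printed without capitals because no base is singled out.
Phgdh shared stretch: gaagatcctgcaagatggagggctgcag
Phgdh unique stretch: cccccaacgggaacagcctcagtgctgc

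Psat1, phosphoserine aminotransferase, takes the next step. Psat1 (ENSMUSG00000024640, chromosome 19, 15904678 to 15947337, minus strand) had 97 fed and 26 fasted counts. That was 2.92-fold lower in the fasted library (log2 ratio -1.54, interval -2.23 to -0.91), and only 3.31% of measured genes had a lower ratio. Psph, phosphoserine phosphatase, completes serine. Psph (ENSMUSG00000029446, chromosome 5, 129765558 to 129787449, minus strand) had 38 fed and 22 fasted counts, a log2 ratio of -0.43 (-1.26 to 0.36) that was within counting error. The ratio of Psph to Psat1 counts, which does not depend on how the libraries are scaled, was 0.392 (fed) and 0.846 (fasted). That was 2.16 times as large (interval 1.03 to 4.49, not adjusted for the 12 such ratios computed). At a stricter confidence level the interval, 0.643 to 7.18, included 1, so whether these neighbouring steps moved unequally depends on the level. All 3 genes together had 152 fed and 56 fasted counts (log2 ratio -1.09, -1.55 to -0.63), of which Psat1 gave 97 and 26.

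The serine hydroxymethyltransferases exist as a cytosolic and a mitochondrial enzyme, whose coding sequences were 65.7% identical over 1419 aligned bases. Shmt1, the cytosolic form (ENSMUSG00000020534, chromosome 11, 60788104 to 60811718, minus strand), had 330 fed and 203 fasted counts. Its log2 ratio was -0.35 (-0.60 to -0.089), which excluded 0 but did not reach 1.5-fold. With plain CPM it was -0.67 and counted as lower. Shmt2, the mitochondrial form (ENSMUSG00000025403, chromosome 10, 127517123 to 127522444, minus strand), had 288 fed and 142 fasted counts, 1.59-fold lower (log2 ratio -0.66, -0.97 to -0.37). The Shmt2 to Shmt1 count ratio was 0.873 (fed) and 0.700 (fasted). The interval of their quotient, 0.608 to 1.06, included 1, so a different change of the 2 forms was not detectable.

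Cytosolic folate interconversion rests on Mthfd1, one protein with dehydrogenase, cyclohydrolase and formyl-tetrahydrofolate synthetase activities. Mthfd1 (ENSMUSG00000021048, chromosome 12, 76255298 to 76319803, plus strand) had the most counts of the set, 761 fed and 369 fasted. It was 1.61-fold lower in the fasted library (log2 ratio -0.69, -0.87 to -0.51), the narrowest interval among the members.

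In mitochondria these activities are split between genes. Mthfd2, the mitochondrial dehydrogenase and cyclohydrolase (ENSMUSG00000005667, chromosome 6, 83305691 to 83325908, minus strand), had 68 fed and 16 fasted counts. It was 3.32-fold lower, with the lowest ratio of the 10 (log2 ratio -1.73, -2.62 to -0.93), and 2.35% of measured genes had a lower one. Mthfd1l, the mitochondrial synthetase that releases formate (ENSMUSG00000040675, chromosome 10, 3973118 to 4167081, plus strand), had 97 fed and 58 fasted counts. Its log2 ratio of -0.39 had an interval from -0.88 to 0.098, and with plain CPM it was -0.71 and lower. Aldh1l2, the mitochondrial 10-formyltetrahydrofolate dehydrogenase (ENSMUSG00000020256, chromosome 10, 83487450 to 83534140, minus strand), had 5 fed and 9 fasted counts. With so few counts the log2 ratio of 1.20 spanned -0.53 to 3.13. Exons of 5 members overlap a gene on the opposite strand, outside the member's own longest coding sequence. Whether the shared bases are coding in the other gene was not examined. With no stated strand setting the reads there cannot be told apart. The overlap is 1056 bases for Aldh1l2 (D10Wsu102e), 452 for Psph (Cct6a), 184 for Shmt1 (Smcr8), 37 for Mthfd1 (Gm47525) and 32 for Shmt2 (Ndufa4l2).

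Mthfd2 counts were lower relative to those of its neighbours in the pathway. The Mthfd2 to Mthfd1 count ratio was 0.0894 (fed) and 0.0434 (fasted), a quotient of 0.485 (0.259 to 0.861). Against Shmt2 the ratio went from 0.236 to 0.113, a quotient of 0.477 (0.249 to 0.870). The Mthfd1l to Mthfd2 ratio went the other way, from 1.43 to 3.63 (quotient 2.54, 1.30 to 5.13). Its closest relative Mthfd2l had only 6 counts in each library, and the quotient of Mthfd2 to Mthfd2l, 0.235, had an interval from 0.056 to 1.02. In all, 12 such ratios were computed and 4 had an interval excluding 1, of which 3 contain Mthfd2 and are not separate. The intervals were not adjusted for the 12, and at a stricter confidence level none of the 4 excluded 1. The summed mitochondrial enzymes (458 fed, 225 fasted counts) and the summed cytosolic enzymes (1091 fed, 572 fasted) kept a similar ratio, 0.420 and 0.393, with a quotient of 0.937 (0.772 to 1.14). A shift between the compartments was therefore not detectable in these sums.

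**Figure D2:**
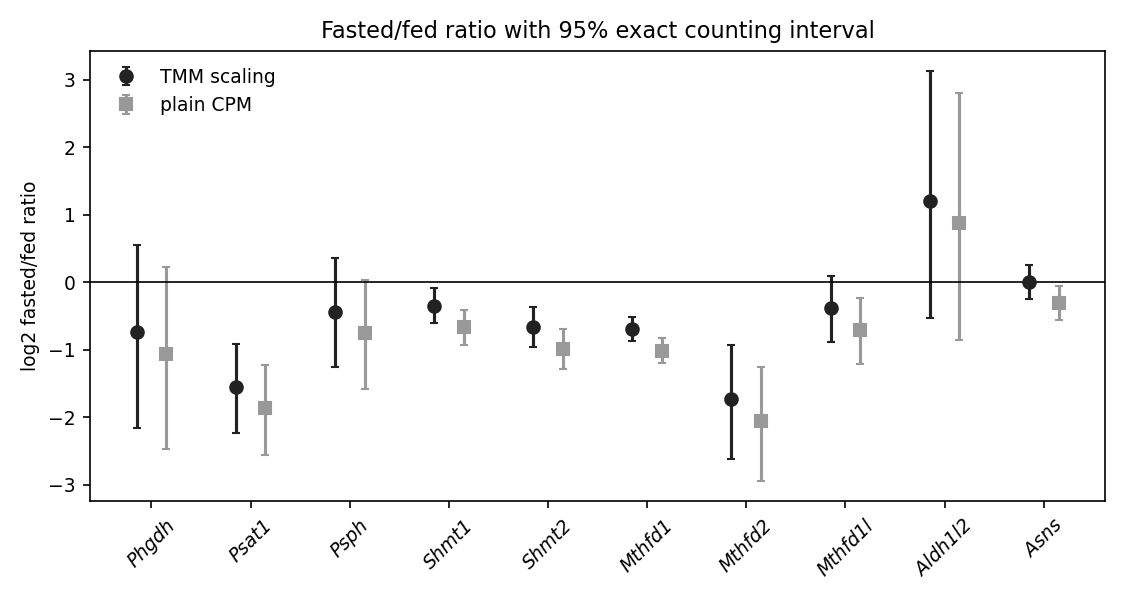
Log2 fasted/fed ratio of each enzyme with its 95% exact counting interval, with TMM scaling (black circles) and plain CPM (grey squares), 1 library per state. Mthfd2 (-1.73) and Psat1 (-1.54) lie lowest, Asns lies at 0.012 with TMM and -0.31 with plain CPM, and the Phgdh and Aldh1l2 intervals are wide because they rest on 25 and 14 counts.

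Asns makes asparagine from aspartate and glutamine. Asns (ENSMUSG00000029752, chromosome 6, 7675169 to 7693254, minus strand) had 302 fed and 238 fasted counts, 48.6 and 49.0 TMM-scaled CPM. The log2 ratio was 0.012 (-0.24 to 0.26), near the middle of all measured genes, of which 50.9% had a lower ratio. The sign depends on scaling, since plain CPM gave -0.31 (-0.56 to -0.061). Among the footprints of the 10 enzymes, which needs no scaling, Asns made up 15.1% when fed (13.5 to 16.7, 95% exact Clopper-Pearson) and 21.8% when fasted (19.4 to 24.4). Mthfd2 made up 3.39% (2.65 to 4.28) and 1.47% (0.841 to 2.37). The share of Psat1 went from 4.84% (3.94 to 5.88) to 2.38% (1.56 to 3.47). Mthfd1, the largest part in both, took 37.99% (35.9 to 40.2) and 33.8% (31.0 to 36.7). A share moves with the counts of the other members as well as the gene's own. Asns counts went from 302 to 238, while the sum of the 10 genes went from 2003 to 1091.

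**Figure D3:**
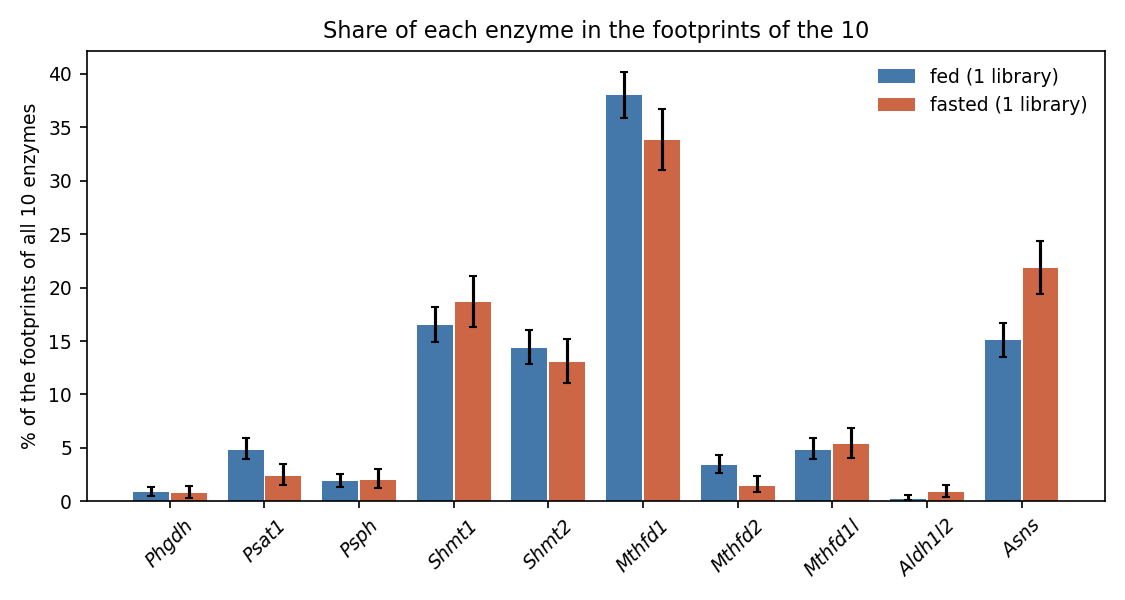
Percentage of the footprints of all 10 enzymes that fell on each, in the fed (blue, 2003 counts) and fasted (orange, 1091 counts) library, with 95% exact Clopper-Pearson intervals covering counting error only. The Asns bar is taller in the fasted library (21.8% against 15.1%), while Psat1 and Mthfd2 are shorter. Bars are not comparable between genes, which differ in length.

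Levels of different genes were compared as footprint density, the plain CPM per kilobase of coding positions whose 28-base window is unique to the gene. All counts of a gene entered, wherever its reads lay, and windows were checked against GENCODE vM21 transcripts, not the genome. In the fed library Mthfd1 was highest at 49.3 (exact Poisson interval 45.8 to 52.9), followed by Shmt1 at 42.2 (37.8 to 47.0), Shmt2 at 38.3 (34.0 to 43.0) and Asns at 32.8 (29.2 to 36.7). Each of these overlapped its neighbour in the order. Psat1 (18.0) and Phgdh (17.2, 10.0 to 27.5) came next, then Mthfd2 (12.0), Psph (10.5) and Mthfd1l (6.04), with Aldh1l2 last at 0.328. Phgdh was at 1.91 per kilobase of its whole coding sequence, so its place depends on which length is used, and how many of its reads were left uncounted was not tested. In the fasted library Shmt1 (26.5), Asns (26.4) and Mthfd1 (24.4) had overlapping intervals at the top, followed by Shmt2 at 19.3. Phgdh (8.27), Psph (6.25), Psat1 (4.94), Mthfd1l (3.70) and Mthfd2 (2.88) followed, and Aldh1l2 was again last at 0.604. The intervals of neighbours from Phgdh to Mthfd2 overlapped in this library, so their order is not resolved.

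The counts of neighbouring genes stand against the 17.3% of all measured genes called higher and 17.3% called lower. Of 12 measured other folate cycle enzymes and carriers, 2 were called higher, another 2 lower and 8 neither (median log2 ratio -0.19), a share near that background. The lower ones were Slc46a1, the proton-coupled folate transporter of the gut (181 fed and 25 fasted counts, log2 ratio -2.50, -3.17 to -1.89), and Tyms, thymidylate synthase (147 and 45 counts, -1.35, -1.87 to -0.86). Slc19a1, the reduced folate carrier, was higher (61 and 163 counts, 1.77, 1.34 to 2.22), so these 2 of the listed folate carriers went opposite ways under both scalings. Aldh1l1, the cytosolic relative of Aldh1l2, was higher with 1234 fed and 1577 fasted counts (0.71, 0.60 to 0.82), but not with plain CPM (0.39).

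Purines, thymidylate and methionine are the main products of one-carbon units, and differences between their lists were not tested. Of 14 measured genes of purine synthesis, 5 were lower, 2 higher and 7 neither (median -0.24). Lower were Atic (742 and 301 counts, log2 ratio -0.95, -1.14 to -0.75) and Gart (604 and 286 counts, -0.72, -0.93 to -0.52), both of which use 10-formyltetrahydrofolate, and Pfas (254 and 108 counts, -0.88, -1.22 to -0.55). Pyrimidine and deoxynucleotide synthesis had 9 of 13 lower, 1 higher and 3 neither (median -1.02), with Dck (-1.60, -2.13 to -1.10) and Cad (-1.13, -1.36 to -0.90) among the lower ones and the ribonucleotide reductase subunit Rrm2 higher (1.07, 0.81 to 1.33). The methionine cycle and transsulfuration had 1 higher and 1 lower of 9 (median -0.21), close to the background, the lower one being Gamt (37 and 8 counts, -1.85, -3.17 to -0.73). Glycine cleavage and choline-derived supply had 2 higher and 0 lower of 6 (median 0.26), namely Pipox (1.46, 1.11 to 1.82) and Sardh, sarcosine dehydrogenase (1.13, 0.58 to 1.69). With plain CPM 2 of these 6 were higher and 1 lower (median -0.064), against 8.86% and 31.2% of all measured genes. Gldc, the glycine decarboxylase, had 0 fed and 7 fasted counts.

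Of 23 measured genes that carry or use serine, glycine and asparagine, 6 were higher, 1 lower and 16 neither with TMM (median 0.11). With plain CPM 3 were higher and 4 lower (median -0.22), where 8.86% of all measured genes were higher and 31.2% lower. Slc6a19, the apical neutral amino acid transporter of the enterocyte, had 6319 fed and 17974 fasted counts (1.86, 1.82 to 1.91). Ptdss1, a phosphatidylserine synthase, was the lower member (-1.31, -1.56 to -1.06).

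The ATF4 gene itself, Atf4, had 79 fed and 68 fasted counts (log2 ratio 0.14, -0.35 to 0.63, or -0.18 with plain CPM). The list of 39 measured genes joins Atf4, its regulators (such as the eIF2 kinases) and its targets, and shares several genes with the list before. Of these 11 were higher, 10 lower and 18 neither (median -0.093), against 17.3% each way over all genes. With plain CPM 7 were higher and 17 lower. Ddit4, an inhibitor of mTORC1 signalling, was highest (271 and 2550 counts, 3.59, 3.41 to 3.78), and Eif2ak2, the RNA-activated kinase of eIF2 and so a regulator, was lowest by its interval (231 and 55 counts, -1.71, -2.17 to -1.29). Of 10 measured other candidate regulators, 3 were higher, 1 lower and 6 neither (median 0.13). The forkhead factor Foxo1 was higher (289 and 666 counts, 1.56, 1.36 to 1.76), as were Foxo3 (0.83) and Tfe3 (0.71), though not these last with plain CPM. Nfe2l2, the oxidative stress factor NRF2, was lower (1577 and 310 counts, -1.99, -2.17 to -1.81).

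**Figure D4:**
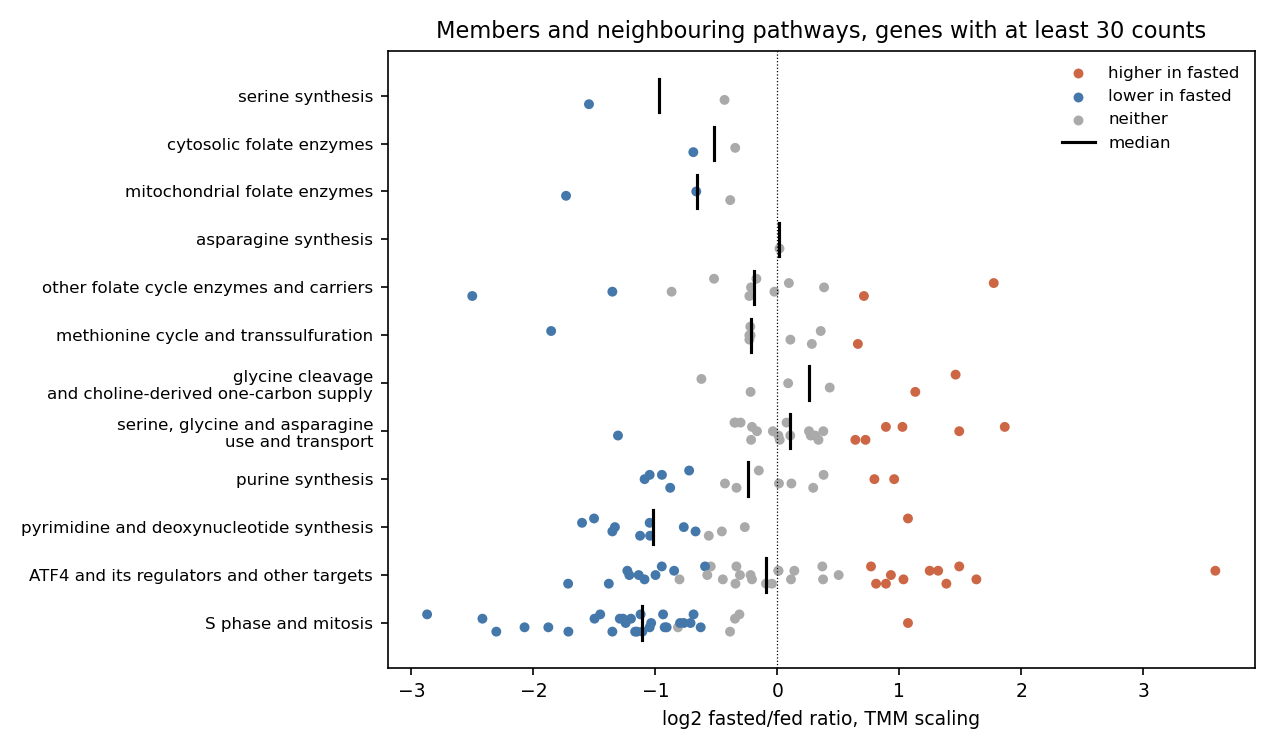
Log2 fasted/fed ratio (TMM scaling) of every gene with at least 30 counts in the 4 enzyme groups and 8 neighbouring lists, coloured by call, with list medians as black bars. The S phase and mitosis and the pyrimidine lists lie furthest to the left, at medians of -1.11 and -1.02, and the ATF4 list spreads to both sides of 0. The first of these share Tyms, Rrm1 and Rrm2 and are not separate.

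Cell type and cell cycle lists are given against the same 17.3% of all measured genes each way. S phase and mitosis genes were lower for 27 of 32 and higher for 1 (median -1.11). Their summed share of all gene counts was 0.210% (fed) and 0.0823% (fasted), with Mki67 at a log2 ratio of -1.26. Rrm2, the higher one, is also in the pyrimidine list, as are Tyms and Rrm1. Crypt stem cell markers were lower for 3 of 11 and higher for 0 (median -0.39, summed 0.192% and 0.0658%), with Lgr5 at 0.18 (-0.071 to 0.43, or -0.14 with plain CPM). Most of that sum was Olfm4, and without it the sum went from 2728 to 1723 counts (0.0491% and 0.0317%). Enterocyte markers were higher for 10 of 12 and lower for 0 (summed 5.06% and 10.7%), and ileal markers for 6 of 8 and 0 (1.21% and 1.41%). Goblet cell markers were lower for 4 of 8 (5.68% and 3.51%), fibroblast markers for 5 of 8 (0.597% and 0.202%, with 2 higher), smooth muscle markers for 6 of 9 (0.619% and 0.279%), tuft cell markers for 5 of 6 (0.0240% and 0.0145%), and B and plasma cell markers for 8 of 8 (0.0942% and 0.0348%). In the following lists most markers were neither higher nor lower. Paneth cells had 2 higher and 1 lower of 7 (1.36% and 1.15%), and macrophages 0 higher and 1 lower of 8 (0.0594% and 0.0483%). T cells had 0 higher and 2 lower of 8 (0.0199% and 0.0121%). Endothelium had 2 higher and 0 lower of 6 (0.0271% and 0.0322%), and enteroendocrine cells 3 higher and 0 lower of 8 (0.0614% and 0.0800%). Every gene of these lists had a read in at least 1 library, except 1 Paneth cell marker. Their part in the lower counts of the enzymes was not tested.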

How the data were processed

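Footprints were counted by the authors, who deposited raw counts per gene symbol for 1 fed and 1 fasted library. Per the submitters' processing notes, which list names only, the build was mm10 and the tools were HTSeq, STAR, Bowtie 1.1.2 and cutadapt. Annotation, strand setting and footprint length filter: not given in the sources used here. NA was read as 0. Reads overlapping no counted feature (13.4% fed, 21.0% fasted of all counted reads), ambiguous reads (0.209% and 0.196%) and reads aligned to several places were left out of library sizes.

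Effective library sizes came from TMM (edgeR 4.0.16, R 4.3.3). With 1 library a group no test between states was possible, so ratios carry exact Clopper-Pearson intervals on the split of counts, and ratios of ratios carry exact conditional intervals. The intervals cover counting error only, with no variation between animals or libraries, and reads copied by PCR amplification would not be independent counts. Medians use 0.5 added counts. The functions were tested on simulated data. Symbols matched GENCODE vM21 for 96.5% of rows, and coding lengths are of the longest coding sequence. Alternatives were plain CPM, DESeq2 1.42.0 size factors, upper-quartile factors, TMM without abundant genes, other count minimums, 2-fold, stricter intervals, and lengths of all exons. The density per unique coding position was chosen after seeing the data.

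Members and lists (14 pathway and 14 marker lists) were chosen with earlier results of these data known. Named genes are all members, Aldh1l1, Mthfd2l, Tyms, Gldc and Atf4, up to 3 called genes per direction and pathway list ranked by the interval bound nearest to 1, and well-known markers. A further gene named by this rule is not reported here.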

Additional observations from a re-analysis of the deposited data

How the results depend on the processing

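The count of lower members was 4 with TMM and 6 with plain CPM, and fell to 2 with a minimum of 200 counts and to 2 with a 2-fold threshold. It was 4 with the other scalings, no minimum or a stricter confidence level, and no setting gave a higher member. The members' median log2 ratio was -0.86 with plain CPM and -0.71 as a mean, and between -0.56 and -0.50 in the other settings. Over all genes, plain CPM gave 1004 higher and 3536 lower, a minimum of 200 counts 1187 and 892, and a 2-fold threshold 935 and 1035, against 1956 and 1962. At the stricter level the quotients for Mthfd2 to Mthfd1 (0.485), Mthfd2 to Shmt2 (0.477), Mthfd1l to Mthfd2 (2.54) and Psph to Psat1 (2.16) no longer excluded 1. Phgdh, Aldh1l2 and Mthfd2l were too shallow to show a difference. Per kilobase of all exons, Asns was 2nd in density in the fed and 1st in the fasted library. No paired analysis was possible because each state had 1 library.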
